A study of Mus musculus with 2 samples.

Results

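The miR-30 family of the mouse is made up of 6 miRNA genes, Mir30a, Mir30b, Mir30c-1, Mir30c-2, Mir30d and Mir30e, which lie in pairs at 3 loci. They were taken by gene identifier from the 1973 miRNA genes listed in microRNA-seq of embryonic liver, and all 6 were found there with at least 10 counts. The samples form a single group: liver at day 12.5 of development from healthy B6NCrl mouse embryos, both sexes pooled, with 2 biological replicates made from 88 embryos (replicate 2) and 120 embryos (replicate 1). No other tissue, age, genotype or treatment was compared. Both pools carry the same donor identifier in the labels, so the spread between them may in part be technical. The values below are therefore levels, ratios within a locus and differences between the 2 libraries.

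A miRNA is cut from a hairpin in a longer transcript as a 5p and a 3p strand. The strand that is loaded into the silencing complex finds its target mRNAs mainly through its seed, bases 2 to 8. All miR-30 genes give a 5p strand with a common seed. In zebrafish the family is required for normal bile duct development, and in the mouse fetal liver miR-30 members are known from the ductal plate, the layer of biliary precursors. At day 12.5 the mouse liver is a blood-forming organ with hepatoblasts, which later give rise to hepatocytes and to the cells of the bile ducts.

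The mature 5p strands show how alike the family members are, which decides whether a read can be assigned to 1 gene. They are given 5′ to 3′ from RefSeq on GRCm38.p6, with the seed in capitals. Of the 6 genes, 4 were matched to that table. Mir30b and Mir30d are named only.
miR-30a-5p (Mir30a, chr1:23272274-23272295, plus strand): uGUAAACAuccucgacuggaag
miR-30e-5p (Mir30e, chr4:120772660-120772681, minus strand): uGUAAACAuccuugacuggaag
miR-30c-5p (Mir30c-2, chr1:23291714-23291736, plus strand, and Mir30c-1, chr4:120769584-120769606, minus strand): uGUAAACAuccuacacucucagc
miR-384-5p (Mir384, not a family gene, chrX:105344332-105344354, minus strand): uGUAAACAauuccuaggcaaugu

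The first 12 bases are the same in miR-30a-5p, miR-30e-5p and miR-30c-5p. Counted from the 5′ end, miR-30a-5p and miR-30e-5p differ only by C13U. Of 1738 mature sequences in the table, 5 carry the seed GUAAACA: those of the 4 matched family genes and miR-384-5p, which shares the first 8 bases with miR-30a-5p. Levels are given as CPM, a gene's sense-strand reads per 1000000 such reads over all miRNA genes. Mir384 had 7.36 CPM in replicate 2, against 4.64 CPM in replicate 1, from 26 and 16 counts. It had far fewer counts than any of the 6 family genes.

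The 3p strands of the 4 matched genes fall into a pair of seed groups, again shown with the seed in capitals.
miR-30a-3p (Mir30a, chr1:23272315-23272336, plus strand): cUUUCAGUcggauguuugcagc
miR-30e-3p (Mir30e, chr4:120772618-120772639, minus strand): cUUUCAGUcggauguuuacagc
miR-30c-1-3p (Mir30c-1, chr4:120769546-120769567, minus strand): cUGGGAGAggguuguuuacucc
miR-30c-2-3p (Mir30c-2, chr1:23291754-23291775, plus strand): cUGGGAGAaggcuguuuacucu

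The 3p strands of Mir30a and Mir30e differ by G18A, and no other gene of the table has their seed UUUCAGU. Mir30b and Mir30d are not in the table, so the seeds of their 3p strands were not compared. The 3p strands of Mir30c-1 and Mir30c-2 differ by G9A, U12C and C22U. Their seed UGGGAGA stands in 1 further mature sequence, that of Mir6958, which had 5 counts in replicate 2 and 4 in replicate 1. The deposited table has 1 count per gene, so reads of the 5p and the 3p strand were not told apart.

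The hairpins of Mir30c-1 and Mir30c-2 are shown because they hold the same mature 5p strand at different places in the genome. The capitals mark their longest common run, of 28 bases.
Mir30c-1 hairpin (chr4:120769534-120769622, minus strand): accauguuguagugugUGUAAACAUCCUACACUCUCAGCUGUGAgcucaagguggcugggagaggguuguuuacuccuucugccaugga
Mir30c-2 hairpin (chr1:23291701-23291784, plus strand): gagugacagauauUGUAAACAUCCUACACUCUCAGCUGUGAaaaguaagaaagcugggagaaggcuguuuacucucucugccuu

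The common run takes in all 23 bases of miR-30c-5p. The deposited tables hold reads aligned to several places on a line of their own, apart from the genes. The rule behind that line is not given in the labels, and it was read as leaving a read that lies within this run out of both genes. The reads on that line made up 31.1% of 11013976 reads in replicate 2 and 28.8% of 11057424 reads in replicate 1. The longest run that Mir30a and Mir30e share with any of the other 1004 hairpins in the table is with each other, of 18 bases, which is shorter than a mature strand. Their 5p strands differ by only 1 base, as do their 3p strands. How reads with a mismatch were placed between these genes was not tested. On that reading, the levels of Mir30c-1 and Mir30c-2 given below are those of reads that could be placed at 1 locus, and they are uncertain as levels of miR-30c. How much miR-30c was left out was not tested. Mir30b and Mir30d are not in the table, so runs that their hairpins share with others were not examined.

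By their counts, Mir30a, Mir30d and Mir30e were abundant miRNA genes of the day 12.5 liver, and the other 3 were low. For Mir30c-1 and Mir30c-2 this was read as covering only reads placed at 1 locus. For Mir30b, runs shared with other hairpins were not examined. Sense counts on miRNA genes came to 3534816 in replicate 2 and 3447858 in replicate 1, so that the limit set by a zero (3 counts) was 0.849 CPM in replicate 2 and 0.870 CPM in replicate 1. The family held 132155 of these counts in replicate 2, or 3.74% (exact 95% Clopper-Pearson interval 3.72 to 3.76), against 130438 in replicate 1, or 3.78% (3.76 to 3.80). The mean share was 3.76% ± 0.0315 (SD, n = 2). Reads carry no molecular identifiers, so all intervals and limits cover counting error only. An SD from 2 libraries is itself imprecise.

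Mir30e led the family. It had 19249 CPM in replicate 2 and 19538 CPM in replicate 1, a mean of 19394 ± 204 CPM (SD, n = 2), which ranked 16 among the 1973 genes and made up 51.6% of the family. Both libraries gave nearly the same level, with an SD of 1.05% of the mean. Mir30a, whose miRNA is known as a repressor of the autophagy gene Becn1, came next. It had 11877 CPM in replicate 2 and 11929 CPM in replicate 1, a mean of 11903 ± 36.9 CPM, at rank 24 and 31.6% of the family. Its SD of 0.310% of the mean was the lowest of the 6. Mir30d, known from pancreatic beta cells as a regulator of insulin transcription, had 5905 CPM in replicate 2 and 6081 CPM in replicate 1. Its mean was 5993 ± 124 CPM, at rank 42 and 15.9% of the family. These 3 genes together held 99.1% ± 0.142 of the family's counts.

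The lower group began with Mir30b, known to repress the Notch ligand Dll4 in endothelial cells. It had 201 CPM in replicate 2 (exact 95% interval 186 to 216) and 129 CPM in replicate 1 (117 to 142), from 709 and 445 counts. Its mean of 165 ± 50.6 CPM ranked 185. The 2 libraries stood apart for this gene, and its SD of 30.7% of the mean was the highest in the family.

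Mir30c-1 had 98.2 CPM in replicate 2 (88.1 to 109) and 92.5 CPM in replicate 1 (82.6 to 103), from 347 and 319 counts. Its mean was 95.3 ± 3.99 CPM, at rank 217. Mir30c-2 had 56.9 CPM in replicate 2 (49.3 to 65.3) and 62.4 CPM in replicate 1 (54.3 to 71.3), from 201 and 215 counts. Its mean was 59.6 ± 3.89 CPM, at rank 229. For each of these genes the intervals of the 2 libraries overlapped. The miRNA they encode, miR-30c, is known in mouse liver as a repressor of Mttp, which loads lipid onto lipoproteins. Together the genes gave 155 CPM in each library, or 0.412% ± 0.00373 of the family.

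**Figure D1:**
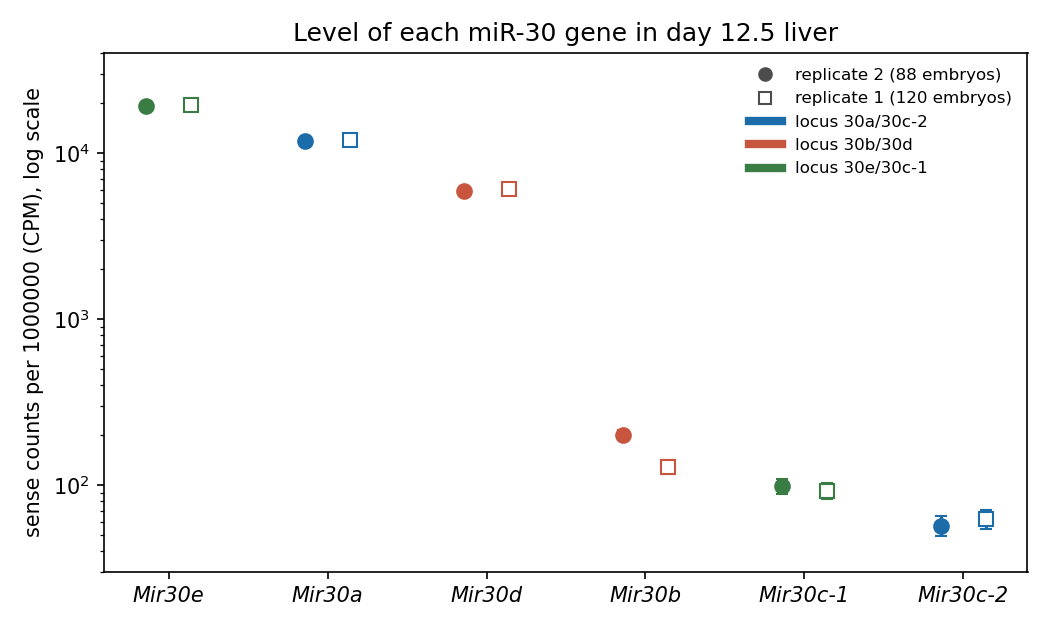
Level of each miR-30 gene in day 12.5 liver, in CPM on a log scale, with replicate 2 as filled circles left of replicate 1 as open squares, and exact 95% intervals for counting error that are often smaller than the symbols. Colours mark the 3 loci. Mir30e, Mir30a and Mir30d sit between 5905 and 19538 CPM, the other 3 genes between 56.9 and 201 CPM, and only Mir30b shows a visible gap between the libraries.

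The order Mir30e, Mir30a, Mir30d, Mir30b, Mir30c-1, Mir30c-2 was the same in both libraries. Mir30e was 1.62 times Mir30a in replicate 2 and 1.64 times in replicate 1. Mir30a was 2.01 times Mir30d in replicate 2 and 1.96 times in replicate 1. The gaps between these means, in CPM, were over 30 times the larger SD. As a ratio, the widest step lay between Mir30d and Mir30b. Mir30b was 2.04 times Mir30c-1 in replicate 2 and 1.39 times in replicate 1. The gap of 69.5 CPM between their means was 1.37 times the larger SD, so this was the least separated pair of neighbours. Mir30c-1 was 1.73 times Mir30c-2 in replicate 2 and 1.48 times in replicate 1. A read covers a mature strand of about the same length in each gene, so levels were not divided by hairpin length. Per base of hairpin, the order by mean level stayed the same, with 211 CPM per base for Mir30e and 168 for Mir30a at the top.

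By these counts, the 3 loci each paired 1 abundant with 1 low gene. Identifiers are given as in the deposited tables, and positions by GENCODE M21 on the mm10 assembly. Mir30a (ENSMUSG00000065405.2, version ENSMUSG00000065405.3 in M21) spans chr1:23272269-23272339 on the plus strand and overlaps no other annotated gene. Mir30c-2 (ENSMUSG00000065567.1) lies at chr1:23291701-23291784 on the same strand, within an exon of the long noncoding RNA Gm27028. Mir30d (ENSMUSG00000065437.1) lies at chr15:68341208-68341289 on the minus strand, within an exon of the long noncoding RNA Gm20732. Mir30b (ENSMUSG00000065476.2), at chr15:68337415-68337510 on the same strand, overlaps an exon of the transcript gene Gm26621 by 16 bases. The overlap is at the start of that exon in the direction of transcription. Mir30e (ENSMUSG00000065409.1), at chr4:120772606-120772697, and Mir30c-1 (ENSMUSG00000065490.1), at chr4:120769534-120769622, both lie on the minus strand in an intron of Nfyc. This host gene codes for a subunit of the CCAAT-binding transcription factor NF-Y. M21 also places Mir30f on the strand opposite Mir30e, and neither library had a count on the opposite strand of any of the 6 genes.

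The 30e/30c-1 locus gave 51.8% ± 0.0995 of the family's counts, the 30a/30c-2 locus 31.8% ± 0.158 and the 30b/30d locus 16.4% ± 0.0582 (SD, n = 2 each). Their levels were 19489 ± 200 CPM, 11962 ± 40.8 CPM and 6158 ± 73.4 CPM. In these counts the differences between loci exceeded the spread between replicates, and each locus level was set almost wholly by its higher gene. If reads of miR-30c-5p were left out of both genes, as read above, they are missing from the 30e/30c-1 and 30a/30c-2 totals.

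**Figure D2:**
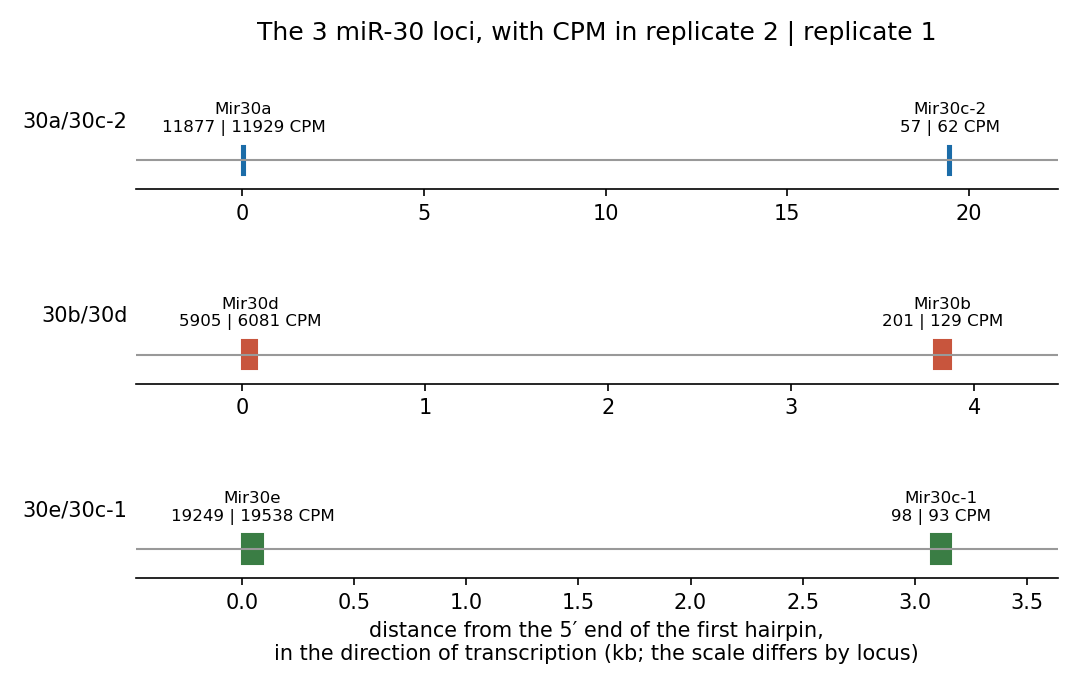
Map of the 3 miR-30 loci in the direction of transcription, each with its own scale in kb from the 5′ end of the first hairpin. Boxes are hairpins, labelled with CPM in replicate 2 and then replicate 1. In each locus the first hairpin has the higher level, 11877 and 11929 CPM for Mir30a, 5905 and 6081 CPM for Mir30d, and 19249 and 19538 CPM for Mir30e.

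Within a locus the genes differed by more than an order of magnitude. Mir30a was 209 times Mir30c-2 in replicate 2 (exact 95% interval 182 to 241) and 191 times in replicate 1 (167 to 220), a mean of 200 ± 12.4 (SD, n = 2), over a distance of 19432 bases between their starts. Mir30e was 196 times Mir30c-1 in replicate 2 (176 to 219) and 211 times in replicate 1 (189 to 236), a mean of 204 ± 10.7, over 3072 bases. The means of these 2 ratios differed by less than the spread between replicates. Both have a miR-30c gene as the lower member. If its count leaves out multiply aligned reads, as read above, the ratios can be too high as ratios of mature miRNAs. At the third locus Mir30d was 29.4 times Mir30b in replicate 2 (27.3 to 31.8) and 47.1 times in replicate 1 (42.9 to 51.9), a mean of 38.3 ± 12.5, over 3793 bases. Its intervals did not overlap between the libraries, and its mean lay below the other 2 ratios by more than their SDs. Whether multiply aligned reads affect this ratio was not examined.

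The miR-30 ratios were set beside those of other neighbouring miRNA genes. Neighbours were taken as consecutive listed genes on 1 strand with starts at most 50 kb apart and at least 10 counts each, which gave 139 pairs. By size of the ratio the 30e/30c-1 pair ranked 12, the 30a/30c-2 pair 13 and the 30b/30d pair 39. The 136 other pairs had a median ratio of 8.25 (interquartile range 2.76 to 40.2), 45 of them at least 20 and 18 at least 100. All miR-30 genes had over 100 counts, and the 98 other pairs with at least 100 counts in each gene had a median ratio of 5.79 (2.61 to 16.5), 22 of them at least 20 and 7 at least 100. In all 3 miR-30 loci the gene transcribed first was the higher, while this held for 68 of the 136 other pairs. That feature was chosen after its values were seen and was not tested.

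Genes whose mature strand also stands in another hairpin were often the lower of a pair elsewhere too. Of the 464 genes with at least 10 counts over both libraries, 383 were in the sequence table and 50 had such a shared strand. Those 50 had a median of 27.4 CPM, against 95.6 CPM for the others. Among the other neighbouring pairs, 21 had 1 gene with a shared strand, and in 18 of these it was the lower gene. Their median ratio was 40.8, against 5.99 over 81 pairs in which neither strand was shared. In 6 pairs both genes had a shared strand, and their median ratio was 21.4. The remaining pairs had a gene outside the sequence table. This split was chosen after the data were seen, and its part in the Mir30c ratios was not tested.

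Between the libraries, Mir30b differed beyond counting error, while the call of its partner Mir30d depended on the scaling. For each gene an exact binomial test, two-sided, set its counts against library sizes scaled by TMM, a trimmed mean of log ratios, with Benjamini-Hochberg adjustment over 464 genes at 0.05. This test covers counting error only and compares libraries, not conditions. Mir30b had 709 counts in replicate 2 and 445 in replicate 1, a scaled ratio of 1.61 and a log2 ratio of 0.69 (95% interval 0.52 to 0.87, adjusted p = 7.01e-15). The intervals of its CPM did not overlap between the libraries, and nor did those of Mir30d, 5826 to 5986 CPM in replicate 2 and 5999 to 6163 CPM in replicate 1. In edgeR's negative binomial exact test Mir30b had an adjusted p of 0.0641 with an assumed coefficient of variation of 0.1, and of 1 with 0.162, a value estimated from the same 2 libraries. With 1 library on each side, neither coefficient is an independent measure of the spread between replicates.

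Of the 6 genes, 3 passed the binomial test with TMM, all higher in replicate 2, and none lower. This tally turned on the scaling: with total counts 1 passed as higher, Mir30b, and 2 as lower, Mir30d and Mir30e, and with DESeq2 size factors 2 passed as higher, Mir30a and Mir30b, and none lower. With TMM, 187 of all 464 genes passed, or 40.3%, with 22.0% higher and 18.3% lower in replicate 2, so that a call was common. Mir30a had a log2 ratio of 0.05 (0.03 to 0.07, adjusted p = 5.75e-06) and Mir30e one of 0.03 (0.02 to 0.05, adjusted p = 8.35e-05), and both turned negative, at -0.01 and -0.02, when libraries were scaled by total counts, as in CPM. Those calls rest on large counts, and the differences are small. Mir30d had a log2 ratio of 0.01 (-0.02 to 0.04, adjusted p = 0.537), which also turned, to -0.04, with total counts (adjusted p = 0.00824). Mir30c-1 had 0.14 (-0.08 to 0.36, adjusted p = 0.358) and Mir30c-2 -0.08 (-0.36 to 0.21, adjusted p = 0.740), and neither passed. In edgeR's test 0 of the 6 passed with either coefficient, against 12 of 464 genes (2.59%, with 1.29% in each direction) at 0.1 and 5 (1.08%, with 0.647% higher and 0.431% lower) at the estimate. Only Mir30b had an unadjusted p under 0.05 there, 0.00197 at 0.1 and 0.0456 at the estimate.

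Apart from Mir30b, each member had an absolute log2 ratio below the median of all genes tested. The median absolute log2 ratio was 0.06 over the 6 genes and 0.26 over all 464. The 464 genes were not matched to the members by level, and low counts widen a ratio by counting error. Low variation as a trait of the family was therefore not tested. Of all 464 genes, 77 had a larger absolute log2 ratio than Mir30b. Of 71 other genes within 2-fold of its level, 4 did.

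**Figure D3:**
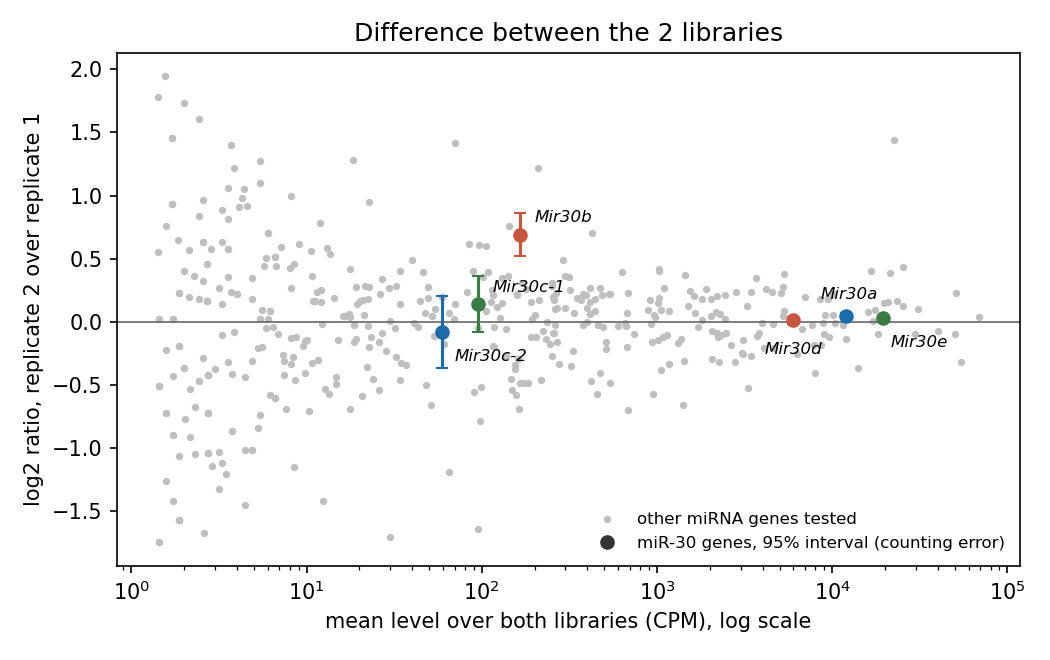
Log2 ratio of replicate 2 over replicate 1 against the mean level in CPM on a log scale, for the miR-30 genes (coloured by locus, bars are exact 95% intervals for counting error) and the other genes tested (grey). Mir30b stands at 0.69, and the other 5 genes lie between -0.08 and 0.14.

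The ratio within a locus needs no scaling between libraries. The ratio of Mir30b to Mir30d was 0.0340 in replicate 2 and 0.0212 in replicate 1, which is 1.60-fold higher in replicate 2, or 0.68 on the log2 scale (95% interval 0.50 to 0.85). By two-sided Fisher's exact test, adjusted over the 139 pairs, p was 7.92e-14. The same test called 56 of the 139 pairs, or 40.3%, and 26 of the 136 other pairs had a larger absolute change. Among 98 other pairs with at least 100 counts in each gene, 8 did. The ratio of Mir30a to Mir30c-2 changed by 0.13 on the log2 scale (-0.16 to 0.41, adjusted p = 0.534) and that of Mir30e to Mir30c-1 by -0.11 (-0.33 to 0.12, adjusted p = 0.508). Neither passed, and their intervals allow changes of up to 0.41 and down to -0.33.

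**Figure D4:**
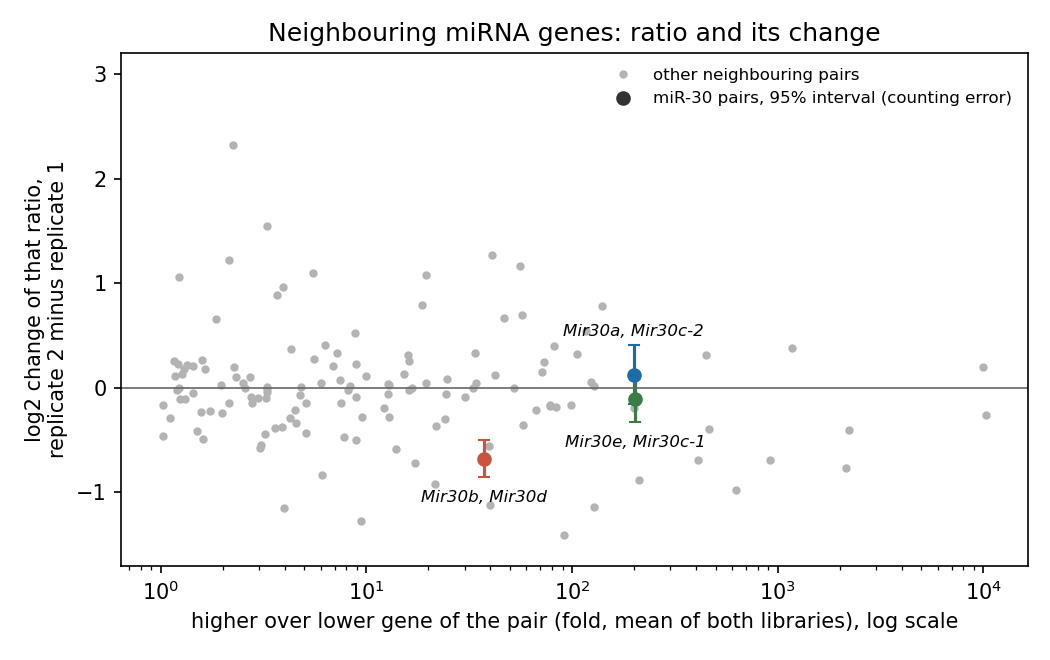
Ratio of the higher to the lower gene of each neighbouring pair (mean of both libraries, log scale) against the log2 change of that ratio, replicate 2 minus replicate 1, with 95% intervals for counting error on the miR-30 pairs. The 30a/30c-2 and 30e/30c-1 pairs sit near a ratio of 200 with changes of 0.13 and -0.11. The Mir30d to Mir30b ratio is drawn as higher over lower, so its point lies below 0 by the 0.68 given for Mir30b over Mir30d.

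The libraries also differed in miRNAs known from particular cells, and how far this bears on Mir30b was not tested. In bulk liver, fewer cells of a type and less RNA per cell cannot be told apart. The calls in this paragraph are by the binomial test with TMM, in which 22.0% of all genes passed as higher and 18.3% as lower. The erythroid genes Mir451a and Mir144 held 3.65% of sense counts in replicate 2 and 1.57% in replicate 1, and both passed as higher, with means of 22459 ± 14195 CPM and 3671 ± 525 CPM. Mir486, also known from erythroid cells but outside the list, passed as lower, with 892 CPM in replicate 2 and 1204 CPM in replicate 1 (log2 ratio -0.38, adjusted p = 7.70e-28). By this test, which covers counting error only, the erythroid miRNAs did not move together. Mir486 also had opposite-strand counts, 301 in replicate 2 and 363 in replicate 1, while 412 of the 464 genes had none. How this bears on its sense counts was not tested. In edgeR's exact test with the coefficient of 0.1, neither Mir144 (adjusted p = 0.564) nor Mir486 (adjusted p = 0.531) passed. Of 7 genes of the epithelial miR-200 family and the biliary Mir23b cluster that were measured, 6 passed as lower and 1, Mir27b, as higher. They held 0.976% of sense counts in replicate 2 and 1.36% in replicate 1, led by Mir23b at 8012 ± 1790 CPM and Mir429 at 1408 ± 484 CPM. Mir24-1 was not analysed here. The median log2 ratio of this list was -0.55, against 0.02 over all 464 genes and 0.04 over the miR-30 genes.

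Of 5 hepatocyte genes 2 passed as lower, and the list held 5.09% in replicate 2 and 6.49% in replicate 1, led by Mir122 at 54020 ± 9747 CPM and Mir192 at 1801 ± 34.1 CPM. The labelled tissue thus carried its defining miRNA. The 4 mesenchymal genes of the list passed as higher, led by Mir143 at 19685 ± 916 CPM and Mir214 at 4543 ± 398 CPM, with 2.55% in replicate 2 and 2.36% in replicate 1. Outside the list, the related Mir199b also passed as higher (log2 ratio 0.49, adjusted p = 1.53e-13), and Mir199a-1, with 11 counts in replicate 2 and 23 in replicate 1, did not pass (log2 ratio -1.01, adjusted p = 0.127). Endothelial Mir126a, at 68490 ± 461 CPM, held 6.82% in replicate 2 and 6.88% in replicate 1. It passed as higher with TMM (log2 ratio 0.04) and as lower with total counts (-0.01, adjusted p = 0.00316). With total counts, Mir27b and Mir199a-2 did not pass either. In edgeR's exact test with the assumed coefficient of 0.1, the list genes that passed were Mir451a as higher and Mir200c as lower, and with the estimated one Mir451a alone. The family's share, 3.74% in replicate 2 and 3.78% in replicate 1, moved less than those of the hepatocyte, epithelial, erythroid and mesenchymal lists. The endothelial share, that of Mir126a alone, also moved little. It was 6.85% ± 0.0461, against 3.76% ± 0.0315 for the family (SD, n = 2 each).

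For each member, the other listed gene with the most similar level was found as the smallest Euclidean distance of log2(CPM + 1) over the 2 libraries, a likeness of level alone. Mir431 was nearest to Mir30e, at a distance of 0.05, with 19550 CPM in replicate 2 and 20095 CPM in replicate 1. Mir99b was nearest to Mir30a, at 0.09, with 11148 CPM in replicate 2 and 11764 CPM in replicate 1. Mir223, a miRNA of myeloid cells, was nearest to Mir30d, at 0.20, with 5584 CPM in replicate 2 and 6929 CPM in replicate 1. On the CPM scale these neighbours, like the 3 members, had lower values in replicate 2. The choice by level in both libraries favours such a likeness.

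Mir675, the miRNA of the imprinted H19 transcript, was nearest to Mir30b, at a distance of 0.29, with 185 CPM in replicate 2 and 155 CPM in replicate 1. It was the least close of the 6 neighbours. Mir301b was nearest to Mir30c-1, at 0.13, with 91.9 CPM in replicate 2 and 98.6 CPM in replicate 1. Mir7j was nearest to Mir30c-2, at 0.07, with 55.7 CPM in replicate 2 and 65.3 CPM in replicate 1.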

How the data were processed

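Raw counts per miRNA gene were deposited by the authors, for both strands together, the sense strand and the opposite strand. Per the labels, reads were under 30 bases, and per the deposited file lists the assembly was mm10 and the counted annotation GENCODE M4, 1 table per library with replicates not pooled. Which aligner and counter were used was not given in the sources used here. Lines that name no gene held 67.9% of reads in replicate 2 and 68.8% in replicate 1 and were left out. CPM values divide each gene's sense count by its library's sense total and multiply by 1000000. Names and coordinates came from GENCODE M21, on the same assembly, which named 1894 of 1973 identifiers. The members and lists were chosen with earlier results of these data known. Genes named are the 6 members, the nearest gene of each by level and the 2 highest of each marker list, and other genes were chosen after their values were seen. With 1 library a side, edgeR's quasi-likelihood test leaves no residual degrees of freedom, so an exact binomial test was used. Log2 ratios have 0.5 counts added. Alternatives were counts of both strands, all reads as denominator, scaling by total counts or by DESeq2 size factors, other count minimums, other pair rules and edgeR's exact test. The tests were checked on simulated counts drawn with counting error only, so that check does not cover a spread between replicates. Tools were R 4.3.3, edgeR 4.0.16, DESeq2 1.42.0, Python 3.11.15 and scipy 1.17.1.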

Additional observations from a re-analysis of the deposited data

How the results depend on the processing

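The order of the members and their ratios were taken from 2 libraries of 1 group, and low counts limit the miR-30c genes. The family share was 3.40% with counts of both strands, 1.19% with all reads as denominator, and 3.74% to 3.78% with either replicate left out. With either replicate left out, the ratio of Mir30a to Mir30c-2 was 191 to 209, of Mir30b to Mir30d 0.0212 to 0.0340 and of Mir30e to Mir30c-1 196 to 211. Over all 464 genes, the binomial test called 102 higher and 85 lower in replicate 2. With total counts as scaling, this was 77 higher and 101 lower, and with DESeq2 size factors 87 higher and 88 lower. edgeR's exact test called 6 higher and 6 lower with a coefficient of variation of 0.1, and 3 higher and 2 lower with the estimate. With total counts the log2 ratios turned to -0.01 for Mir30a (adjusted p = 0.680), -0.022 for Mir30e (adjusted p = 0.0174) and -0.042 for Mir30d (adjusted p = 0.00824). With DESeq2 size factors Mir30d turned to -0.0063 (adjusted p = 0.795) and Mir30e no longer passed (adjusted p = 0.146). These scalings shifted the median of all genes by -0.05 and -0.02. Mir30b kept a log2 ratio of 0.64 to 0.69 over 8 settings, but all of them used the same counts for this gene. It passed in 6 of them, all by the binomial test, which covers counting error only. In edgeR's exact test, which allows for a spread between replicates, it passed with neither coefficient. The alternatives for the ratio changes within the 3 loci could alter only which pairs p was adjusted over, since the members have no opposite-strand counts, so they say nothing about stability. None of them allowed for a spread between replicates. With starts at most 10 kb apart, the 30a/30c-2 pair falls out and gives no value. No paired analysis was possible because the labels give 1 group, so replicate numbers pair no samples.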
